A study of Mus musculus with 2 samples.

Results

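The genes described here are 62 protein-coding genes of 20665 on chromosomes 1 to 19 of the RefSeq gene table. Most encode enzymes and partners that methylate or demethylate histones or move nucleosomes, and some, such as Setd3, have other roles. Membership was set by gene symbol, and the genes fall into 6 families, with 8 Kmt genes, 15 Kdm genes, 8 Setd genes, 12 Smarc genes, 9 Chd genes and 10 Arid genes. The uterus was taken whole from wild-type mice on gestational day 4, and its polyA RNA gave 1 ac4C immunoprecipitation library and 1 input library. In acRIP-seq, RNA fragments that carry N4-acetylcytidine (ac4C, a cytidine with an added acetyl group) are captured with an antibody and sequenced beside uncaptured RNA. Mouse strain, age and the number of animals behind each library were not given in the sources used here. A peak was given to a gene when its summit lay in the gene span, introns included, and 269 of the 21192 peaks of the list belonged to these genes. No group had replicates, so no test between conditions was possible, and every interval below covers counting error of the immunoprecipitation alone.

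Methyl groups on histone lysines are written by SET domain enzymes such as the Kmt and Setd proteins and removed by amine oxidases (Kdm1a, Kdm1b) or by JmjC oxygenases (the other Kdm proteins). Most Smarc proteins and the Arid1 proteins are subunits of SWI/SNF, a complex that spends ATP to slide or evict nucleosomes, and the Chd proteins are a separate family of such motors with chromodomains that bind histones. In the pregnant uterus these enzymes work beside the steroid receptors, and Arid1a is known to be needed in the mouse endometrium for implantation.

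The tissue label was set against marker genes, of which a peak shows the transcript only where it also carries ac4C, and 31.7% of all protein-coding genes held a peak. Summits lay in 9 of 9 stromal markers, 6 of 7 epithelial markers, 6 of 6 myometrial markers, 3 of 4 endothelial markers and 3 of 5 immune markers. Of 4 genes of the preimplantation embryo only Gata6 held a peak. In a whole tissue, fewer cells of a type and less RNA per cell cannot be told apart. The number of fragments at each summit, worked back from the values of its peak, had a median of 33 over the members' peaks (5 to 150), against 22 over all peaks. The background at the members' summits had a median of 4.81 fragments, against 2.63 over all peaks. How far this deeper signal bears on the number of peaks was not tested.

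A peak was held by 47 of the 62 genes (75.8%), where 31.7% of all protein-coding genes of these chromosomes held one. The second share counts every gene of the table, whether or not it is transcribed in the uterus. The 2 shares were not matched for transcript level. The authors' fold enrichment over background, the ratio used throughout, ran from 2.20 to 26.1 over the 269 peaks with a median of 5.69, close to the median of 5.58 of all peaks in the list. Whether that background was taken from the input library was not given in the sources used here, so a fold is not stated to be over input. At the highest peak of each gene the median was 9.43 over the 47 genes and 6.62 over all 6560 genes with a peak. That gap depended on taking the highest peak. With the median over a gene's own peaks it was 5.63 against 5.49. Of the 47 genes, 22 (46.8%) reached 10-fold or more at their highest peak, against 19.1% of all genes with a peak. The members thus held a peak more often than all genes and lay near all genes in the middle of their peaks. Their strongest peak was higher over all 47 genes, but not among the 24 members with 3 to 9 peaks (8.22 against 8.16 over all such genes) or the 7 with a single peak (4.68 against 5.29).

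**Figure D1:**
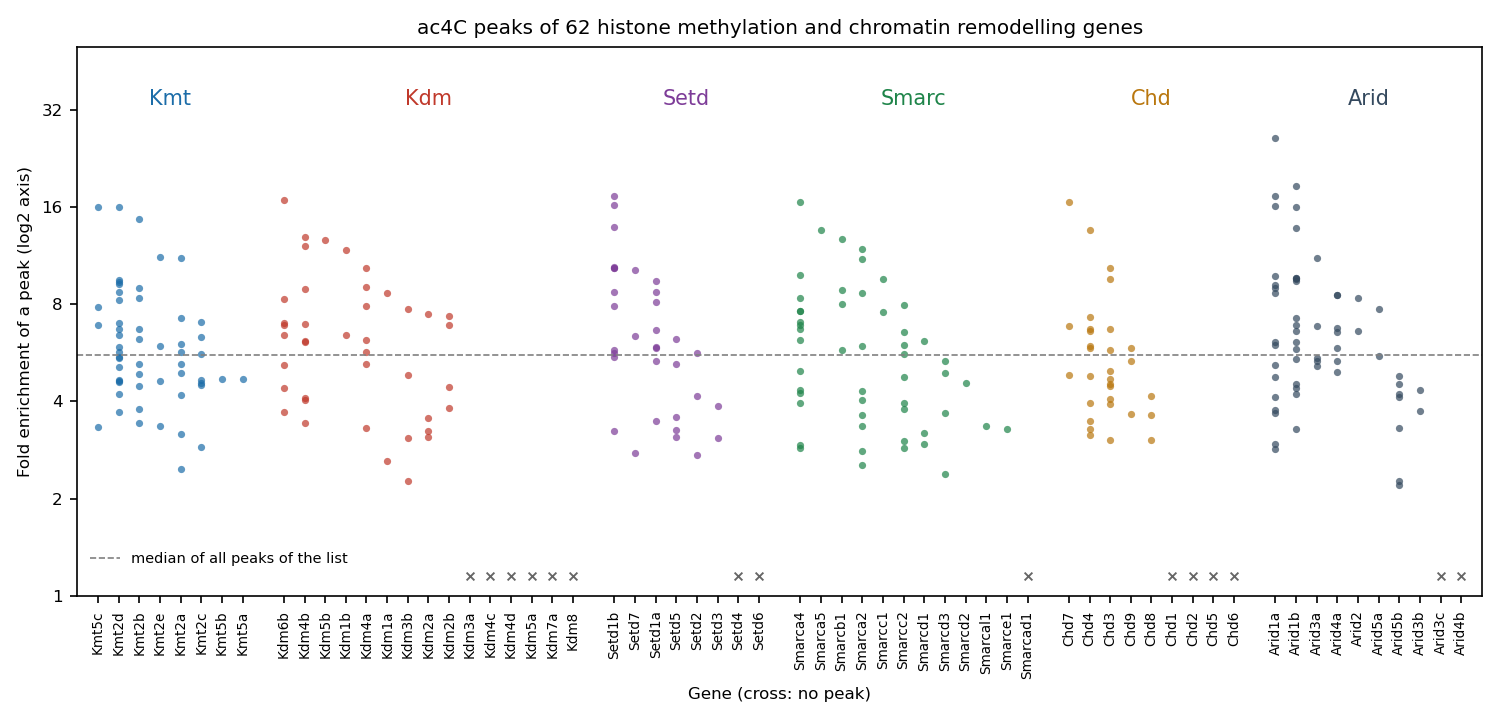
Fold enrichment of each of the 269 peaks (dots, log2 axis) for the 62 genes, grouped by family and ordered by their highest peak; a cross marks a gene with no peak and the dashed line is the median of all peaks of the list, 5.58. Arid1a reaches the highest value, 26.1, and all 8 Kmt genes hold a peak while 6 Kdm and 4 Chd genes hold none.

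The RefSeq table of start windows (GRCm38.p6, 250 bases before and 50 after a listed transcript start) held 62 windows for 46 of the members. Of these windows, 6 had their start inside a peak (9.68%), against 1.50% of the 20085 windows of protein-coding genes. Both shares count windows of genes without a peak and were not matched for the number of peaks per gene. The sequences below are those of the 5 members whose highest peak covered a listed start, shown because the strongest enrichment of each gene then spans a place where transcripts begin. Each runs 5′ to 3′ on the gene's strand (GRCm38.p6, RefSeq), with 70 bases before the start in lower case and the first 30 transcribed bases in capitals. Arid1a lies on the minus strand (chr4:133753956-133754055), Arid1b on the plus strand (chr17:4995004-4995103), Kdm5b on the plus strand (chr1:134560108-134560207), Setd7 on the minus strand (chr3:51560794-51560893) and Setd2 on the plus strand (chr9:110532527-110532626).
Arid1a: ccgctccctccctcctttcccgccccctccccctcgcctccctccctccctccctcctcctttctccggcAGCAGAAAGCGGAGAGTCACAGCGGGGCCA
Arid1b: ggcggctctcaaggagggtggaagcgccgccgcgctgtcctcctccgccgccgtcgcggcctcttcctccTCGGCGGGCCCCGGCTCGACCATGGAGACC
Kdm5b: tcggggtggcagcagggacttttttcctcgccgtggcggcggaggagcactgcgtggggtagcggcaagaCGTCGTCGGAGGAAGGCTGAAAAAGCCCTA
Setd7: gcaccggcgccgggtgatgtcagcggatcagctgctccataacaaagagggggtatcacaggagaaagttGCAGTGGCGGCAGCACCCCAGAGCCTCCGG
Setd2: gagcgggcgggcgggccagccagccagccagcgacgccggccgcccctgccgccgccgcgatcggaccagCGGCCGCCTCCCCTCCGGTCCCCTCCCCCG

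The peak of Arid1a reached 459 bases before that start and had its summit 1192 bases after it. In Arid1b the peak began 160 bases before the start and the summit lay 268 bases after, and in Kdm5b these distances were 13 and 173. The Setd7 peak began 12 bases before the start with its summit 685 bases after, and its summit also lay in 5031434O11Rik, a gene of another kind. In Setd2 the peak began 94 bases before the listed start and its summit lay 89 bases after the beginning of the gene span. The spans of Arid1a, Arid1b and Setd2 begin upstream of the starts shown, so the lower-case bases can be part of longer transcripts there. The first 50 transcribed bases had a G and C content of 70% in Arid1a, 72% in Arid1b, 56% in Kdm5b, 74% in Setd7 and 84% in Setd2. The median was 69% over the members' 62 windows, 60% over all windows and 68% over the 302 windows with their start inside a peak.

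A run of 4 cytidines spaced 3 bases apart (CNNCNNCNNCNN, searched on the transcript strand), a spacing that has been linked to ac4C sites, was searched in the same 50 bases. It was present in 26 of the members' 62 windows (41.9%), in 25.2% of all windows and in 36.4% of the 302 windows inside a peak. Of the 5 genes shown it was found in Arid1b, Setd7 and Setd2, and the Setd2 window held 7 overlapping matches. In the 250 bases before the start, searched on both strands, the GC box GGGCGG was present in 43 of the members' 62 windows (69.4%) and 43.4% of all windows, and TATAAA in 2 (3.23%) and 11.7%. A match is a description of these letters, and the G and C content of the windows differed as given above.

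The families differed in how many of their genes held a peak. All 8 Kmt genes did, as did 11 of 12 Smarc genes (91.7%), 8 of 10 Arid genes (80.0%) and 6 of 8 Setd genes (75.0%). The share was lower in the Kdm family, 9 of 15 (60.0%), and in the Chd family, 5 of 9 (55.6%), both still above the 31.7% of all genes. That 31.7% is not matched for span. From 100 kb on, 2 of 4 Chd and 1 of 2 Kdm genes held a peak, against 49.9% of all genes. At 50 to 100 kb these were 1 of 3 and 5 of 7, against 40.7%. At 20 to 50 kb they were 2 of 2 and 3 of 5, against 34.1%. The 1 Kdm gene below 20 kb held none. The genes without a peak were Kdm3a, Kdm4c, Kdm4d, Kdm5a, Kdm7a, Kdm8, Setd4, Setd6, Smarcad1, Chd1, Chd2, Chd5, Chd6, Arid3c and Arid4b. No background value is given for a gene without a peak, so a low transcript level and a lack of ac4C could not be told apart in these 15 genes, and enrichment was not detected at this depth.

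Peak density ranked the families in a similar way. Per 10 kb of gene span the Kmt genes held 1.06 peaks, the Setd genes 0.924, the Smarc genes 0.714, the Arid genes 0.550, the Kdm genes 0.415 and the Chd genes 0.336, against 0.201 over all protein-coding genes. These values include the spans of genes without a peak. Spans include introns and exons were not used, so the values are not densities per base of spliced RNA. Among genes with a peak, the median density was lower over members, 0.641, than over all genes, 0.854. Smarc (1.02) and Kmt (0.858) lay above that value. Setd (0.658), Arid (0.656), Chd (0.501) and Kdm (0.484) lay below it. Single genes carried much of the pooled density of the families. Without the gene with most peaks in each family, Arid and Smarc changed places and the rest of the order held. Without Kmt2d the Kmt value was 0.754, and without Setd1b the Setd value was 0.635. It was 0.585 for Arid without Arid1b, 0.575 for Smarc without Smarca4 and 0.351 for Kdm without Kdm4b. Without Chd3 the Chd value was 0.223, close to the 0.201 of all genes. The median fold at the highest peak followed another order, with 11.1 for Kmt, 10.3 for Kdm, 10.3 for Chd, 8.42 for Arid, 7.92 for Smarc and 7.84 for Setd. This order was lost under other settings. Among peaks of at most 631 bp, Kdm (8.65), Arid (8.03) and Smarc (7.92) lay above Kmt (7.71). By the middle peak of each gene, Arid (6.28), Kdm (6.14) and Chd (5.33) lay above Kmt (5.25). With a −log10 q of at least 10, Chd (11.9) and Smarc (11.8) lay above Kmt (11.2). All 9 Kdm genes with a peak lay above 6.62, the median over all genes, as did 6 of 8 Kmt genes, 6 of 8 Arid genes, 6 of 11 Smarc genes, 3 of 6 Setd genes and 3 of 5 Chd genes. In the Kdm family the lowest of these highest peaks was 7.35-fold, while in each of the other families at least one gene had a highest peak under 5-fold.

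**Figure D2:**
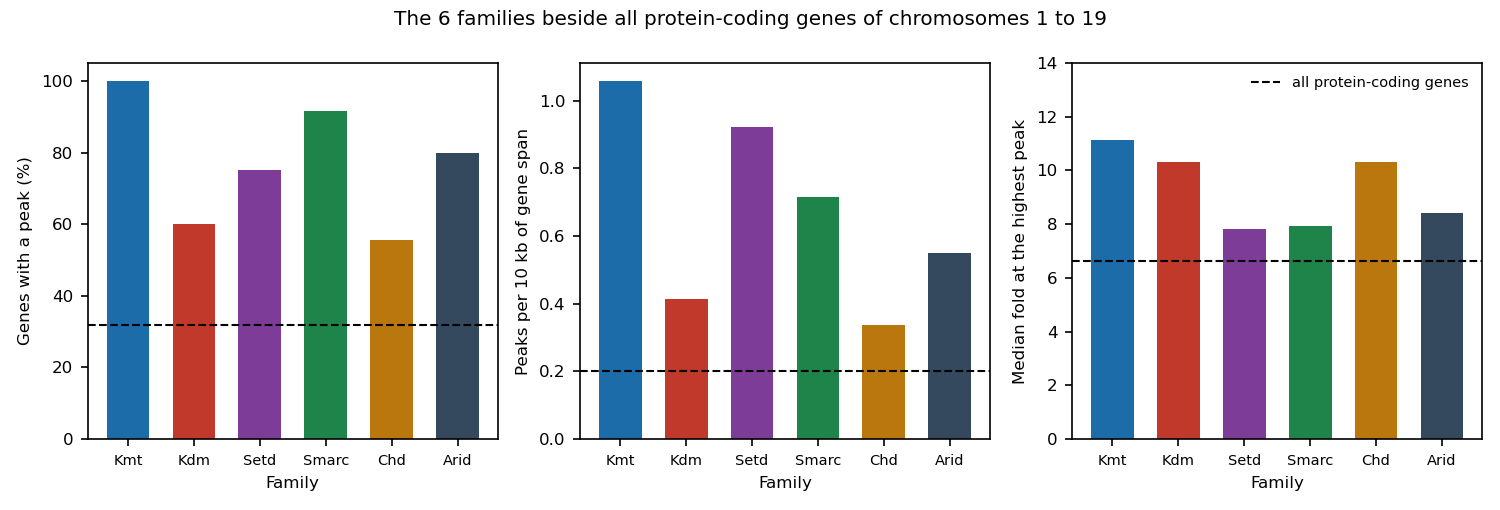
Share of genes with a peak (left), peaks per 10 kb of gene span (middle) and median fold enrichment at the highest peak of genes with a peak (right) for the 6 families (bars), with the value over all protein-coding genes of chromosomes 1 to 19 as a dashed line. All 6 families lie above the line in each panel, and Kmt is highest in the left and middle panels. The middle panel includes the spans of genes without a peak, and the dashed lines are not matched for span. The first place of Kmt at the right, 11.1, is lost among peaks of at most 631 bp (7.71) and by the middle peak of each gene (5.25).

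The methyltransferases of histone H3 lysine 4, the mark of promoters and enhancers, were all marked by peaks. These are Kmt2a to Kmt2d and Setd1a and Setd1b, with Kmt2e as a relative not thought to be an active enzyme, and the 7 genes held 69 peaks between them. Kmt2d (NCBI gene 381022), the enhancer methyltransferase also called MLL4, held 19 peaks, the most of any member. Their fold enrichment ran from 3.71 to 16.0 with a median of 5.89. The highest lay at chr15:98871220-98872242, at 16.0 (95% interval 12.2 to 20.6) on 57 fragments over a background of 2.63. Only that peak passed 10-fold, so Kmt2d stood out by number rather than by the height of most of its peaks. Its relative Kmt2c, with a span of 227 kb against 42.4 kb, held 7 peaks from 2.90 to 7.06.

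Setd1b (NCBI gene 208043), a catalytic subunit of a SET1 complex, stood out by the height of its peaks as well as by their number. It held 12 peaks from 3.24 to 17.3 in a span of 26.6 kb, and 6 of the 12 reached 10-fold. Its median peak, at 9.53, was the highest of any member with 5 or more peaks, and its highest lay at chr5:123151300-123152565 with an interval of 12.7 to 23.0. Setd1a held 8 peaks from 3.49 to 9.43, none of which reached 10-fold. Kmt2b, the promoter methyltransferase MLL2, held 10 peaks in 20.2 kb, from 3.44 to 14.7, and Kmt2a held 9 in 78.0 kb, from 2.47 to 11.1. The 4 peaks of Kmt2e ran from 3.37 to 11.2.

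The methyltransferases of histone H4 lysine 20 differed among themselves. Kmt5c, which adds the later methyl groups at heterochromatin, held 4 peaks in 7.42 kb, at 16.0, 3.33, 7.81 and 6.89 from its start to its end. This was the densest member by gene span, at 5.39 peaks per 10 kb. Kmt5b, the other enzyme of that step, held 1 peak at 4.69 (2.54 to 8.08), and Kmt5a, which adds the first methyl group, held 1 at 4.68 (3.58 to 6.02). The intervals of these last peaks lay below that of Kmt5c's highest, 11.3 to 22.0. Among peaks of at most 631 bp, the highest of Kmt5c was 3.33 (1.92 to 5.44).

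Among the remaining Setd genes, Setd2, the enzyme that trimethylates histone H3 lysine 36, held 3 peaks at 5.63, 2.73 and 4.15 from its start. Setd5 held 5 peaks from 3.10 to 6.25. Setd7, a lysine methyltransferase of histone and other proteins, held 3 peaks, the highest at 10.2 on 13 fragments (5.76 to 16.9). Setd3, which methylates actin on a histidine, held 2 peaks, the higher at 3.87, the lowest highest peak of the family.

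Of the demethylases, both amine oxidases held 2 peaks. Kdm1a (LSD1) stood at 8.65 and 2.61, the second with a summit also in Luzp1, and Kdm1b at 11.7 and 6.40. The greatest value of the family was that of Kdm6b (NCBI gene 216850), a JmjC enzyme that removes methyl groups from histone H3 lysine 27. It held 8 peaks from 3.70 to 16.9, and its highest was a broad peak of 4991 bp at chr11:69403564-69408554 (interval 13.7 to 20.5) on 97 fragments. The second highest of Kdm6b was 8.30. Kdm4b and Kdm4a, which act on lysines 9 and 36 of histone H3, held 9 peaks (3.44 to 12.9) and 7 peaks (3.30 to 10.3), while Kdm4c and Kdm4d held none. Kdm5b, a demethylase of lysine 4, held a single peak of 12.6 (8.41 to 18.3) at its start, and Kdm5a held none. The summit of Kdm5b also lay in the span of Mgat4e, and the list gave no strand to assign it. Kdm2a, Kdm2b and Kdm3b held 4 peaks each, with highest values of 7.46, 7.35 and 7.72.

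Within SWI/SNF, most peaks by number lay in the motor subunits and in Arid1a and Arid1b. The alternative ATPases Smarca4 (BRG1) and Smarca2 (BRM) held 15 and 10 peaks, and the large ARID subunits Arid1a and Arid1b held 16 and 17. Smarca4 (NCBI gene 20586) ran from 2.87 to 16.5 with a median of 6.69, and its highest peak lay at chr9:21635354-21635913 (interval 13.0 to 20.8) on 72 fragments. Smarca2 ran from 2.53 to 11.8 with a median of 4.17. The 7 core and accessory subunits Smarcb1, Smarcc1, Smarcc2, Smarcd1, Smarcd2, Smarcd3 and Smarce1 all held a peak, 24 in all, with highest values from 3.28 in Smarce1 to 12.7 in Smarcb1. Smarcc2 held 9 of these, from 2.87 to 7.92. Per 10 kb of span the order was not the same. The 7 core and accessory genes held from 0.185 peaks (Smarcc1) to 2.87 (Smarcc2). The ATPases, Arid1a and Arid1b held from 0.481 (Arid1b) to 2.06 (Arid1a), and Arid2 held 0.170. Smarca5, the ATPase of the separate ISWI complexes, held a single peak at 13.6 (8.57 to 20.7), and Smarcal1, which acts at stalled replication forks, a single one at 3.36 (2.11 to 5.10).

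Arid1a (NCBI gene 93760) held the strongest peak of all members, at chr4:133752293-133754444. It stood at 26.1 (20.7 to 32.4) on 78 fragments over a background of 2.03, rank 26 among the highest peaks of the 6560 genes. Its 16 peaks had a median of 6.03 and a minimum of 2.85, and 3 passed 10-fold, at 26.1, 17.3 and 16.2. Arid1b (NCBI gene 239985) had its highest peak at chr17:4994914-4996641, at 18.5 (13.9 to 24.2) on 52 fragments. Its 17 peaks had a median of 6.87 and a minimum of 3.29, with 3 past 10-fold, at 18.5, 16.0 and 13.8. The subunits thus had alike numbers of peaks. The span of Arid1b was 353 kb and that of Arid1a 77.8 kb, introns included, and the lengths of their spliced RNA were not compared. Arid2, the ARID subunit of the PBAF form of the complex, held 2 peaks, at 8.33 and 6.59.

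The other ARID proteins bind DNA outside the SWI/SNF complex, and each carried fewer peaks, with a lower highest peak, than Arid1a and Arid1b. Arid3a held 5, the highest at 11.1. Arid4a, a partner of the retinoblastoma protein, held 7 from 4.94 to 8.51, and its paralog Arid4b held none. Arid5b held 7 from 2.20, the lowest value of all members, to 4.78. Arid5a and Arid3b held 2 each, with highest values of 7.72 and 4.32.

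Among the Chd genes, peaks gathered in the ATPases of the NuRD complex, a remodeller that also deacetylates histones. Chd4 held 11 peaks from 3.14 to 13.5 with a median of 5.86, and Chd3 held 11 from 3.03 to 10.3 with a median of 4.68. The highest peak of Chd3 also lay in Gm32483, a gene of another kind. Chd5, the third of these ATPases, held none. Chd7, which is mutated in CHARGE syndrome, held 3 peaks, at 6.83, 16.6 and 4.84 in order of position, and the highest (11.6 to 23.1) rested on 33 fragments. Chd8 held 3 of at most 4.15. Chd9 held 3 of at most 5.86, and that highest peak was the widest of all members, 5409 bp, on the largest number of fragments, 150, over the largest background, 24.8.

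Closest paralogs were compared in 12 pairs. In 10 pairs both genes held a peak, and in 2 pairs only one did (Kdm5b without Kdm5a, Arid4a without Arid4b). At the highest peak, 95% intervals were apart in 2 of the 10 pairs. Kmt2d stood at 16.0 (12.2 to 20.6) against 7.06 (4.89 to 9.87) for Kmt2c, and Kmt5c at 16.0 (11.3 to 22.0) against 4.69 (2.54 to 8.08) for Kmt5b. The other 8 pairs had overlapping intervals, among them Arid1a with Arid1b, Smarca4 with Smarca2 and Setd1b with Setd1a. Overlap does not show that such genes were alike. In several pairs the highest of many peaks was set against the highest of few. Kmt2d had 19 peaks against 7 in Kmt2c, and Kmt5c 4 against 1 in Kmt5b. Smarca4 had 15 against 10 in Smarca2, and Smarcc2 9 against 2 in Smarcc1. The 2 separations rested on peaks wider than 631 bp. Among peaks of at most 631 bp Kmt2d stood at 9.52 (7.02 to 12.6), and its interval overlapped that of Kmt2c. Kmt5c then stood at 3.33 (1.92 to 5.44), and its interval overlapped that of Kmt5b.

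**Figure D3:**
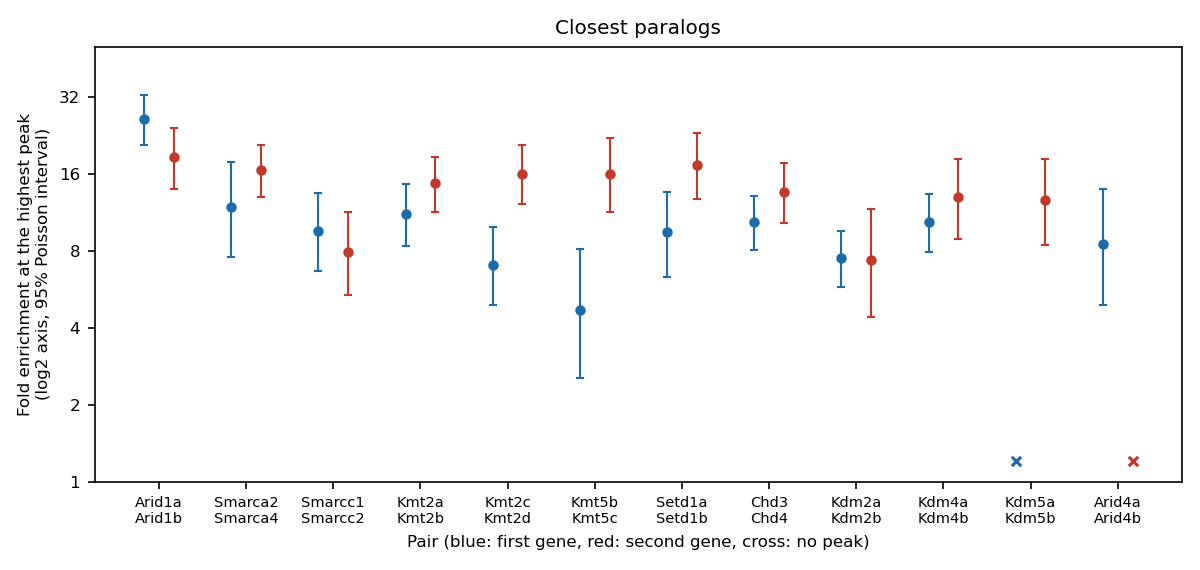
Fold enrichment at the highest peak (points, log2 axis) with its 95% exact Poisson interval (bars, counting error only) for the first gene (blue) and second gene (red) of 12 paralog pairs; a cross marks a gene with no peak. The intervals of Kmt2c and Kmt2d and of Kmt5b and Kmt5c do not meet here but do among peaks of at most 631 bp. Kdm5a and Arid4b have no peak.

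Many peaks per gene were common in this set. Of the 62 genes, 9 (14.5%) held 10 or more peaks, against 1.43% of all protein-coding genes. These were Kmt2d, Arid1b, Arid1a, Smarca4, Setd1b, Chd3, Chd4, Kmt2b and Smarca2, and together they held 121 of the 269 peaks (45.0%). The members had long spans, with a median of 56.1 kb against 17.5 kb over all genes. The shares with 10 or more peaks, and with any peak, were therefore set beside genes of like span. At 20 to 50 kb, 5 of 21 members held 10 or more peaks, against 97 of 4851 genes. At 50 to 100 kb these were 2 of 20 against 71 of 2412. From 100 kb on they were 2 of 14 against 105 of 2313, and below 20 kb 0 of 7 against 22 of 11089. In spans of 20 to 50 kb, 18 of 21 members held a peak (85.7%), against 34.1% of all genes of that class. The shares were 15 of 20 (75.0%) against 40.7% in spans of 50 to 100 kb, 10 of 14 (71.4%) against 49.9% from 100 kb on, and 4 of 7 (57.1%) against 25.0% below 20 kb. Among members, span and number of peaks had a Spearman correlation of 0.07 (62 genes, which share both libraries), against 0.23 over all 20665 genes. Members with 10 or more peaks thus included spans from 20.2 kb (Kmt2b) to 353 kb (Arid1b).

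**Figure D4:**
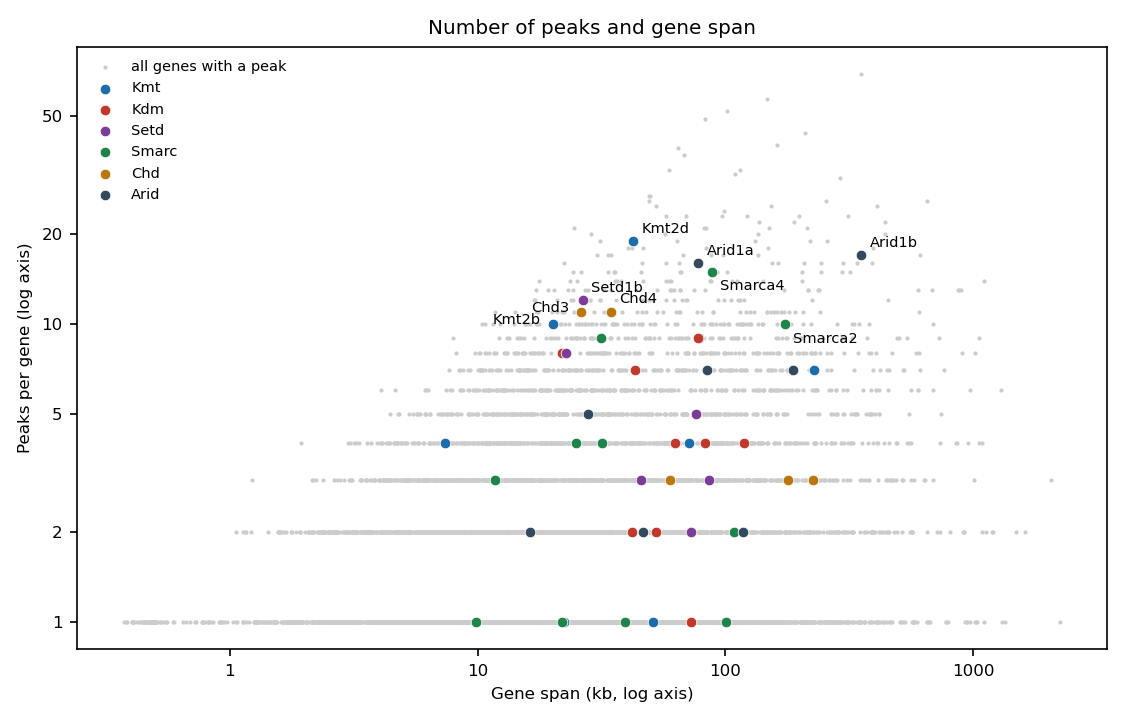
Number of peaks per gene against gene span, both on log axes, for all genes with a peak (grey) and the members by family (coloured); names are given for the 9 members with 10 or more peaks. Members with 10 or more peaks span 20.2 to 353 kb, with Kmt2d highest at 19.

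The height of the highest peak was also read beside the number of peaks, since a maximum over more peaks is larger. Among genes with 10 or more peaks, the 9 members had a median of 16.0 at their highest peak, against 12.1 over all 295 such genes. With 2 peaks the medians were 8.33 over 7 members and 6.45 over 1293 genes. As given above, members with a single peak or with 3 to 9 peaks had medians below, or close to, those of the 2701 and 2271 genes with as many peaks. By background at the highest peak, the members' medians lay above those of all genes in each of 5 classes, for example 12.6 against 7.35 at 1 to 2 fragments and 8.33 against 6.89 at 2 to 4. The gap was smallest at 8 or more fragments, 4.68 over 3 members against 4.20. These classes did not hold the number of peaks fixed, so they do not show a height apart from that number.

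Peak width differed between the families, in part through single genes. Peaks wider than 631 bp, double the median width of the list, made up 59 of the members' 269 peaks (21.9%), against 14.4% of the peaks of all genes. They were 22 of 55 in the Kmt family (40.0%), 10 of 33 in Setd (30.3%), 14 of 58 in Arid (24.1%), 6 of 31 in Chd (19.4%), 6 of 41 in Kdm (14.6%) and 1 of 51 in Smarc (1.96%). Kmt2d held 12 of the 22 wide Kmt peaks, and without it the Kmt share was 10 of 36 (27.8%). Setd1b held 5 of the 10 in Setd, and without it the share was 5 of 21 (23.8%). Without Kdm6b the Kdm share was 3 of 33 (9.09%). Of the 10 peaks wider than 2 kb, 3 belonged to Kmt2d (4866, 3924 and 2212 bp). The others belonged to Chd9, Kdm6b, Arid1b, Kmt2b, Kmt2a, Arid1a and Arid5b. Adjacent summits of a gene lay a median of 2620.5 bp apart over members and 2318 bp over all genes, so the spacing was alike.

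Places along the gene were read for the 46 members with a start window, which gives the strand. Of these, 34 held a peak, 189 peaks in all. The last 20% of the span held 67 summits (35.4%) and the first 20% held 37 (19.6%), against 39.1% and 16.0% over all genes with a peak and an entry. The last 20% of Arid1a held 9 of its 16 peaks and that of Arid1b 10 of 17, and without these 2 genes the share of the last 20% was 30.8%. Smarca4 had 7 of its 15 peaks between 20% and 40% of its span, and Chd4 had 6 of its 11 in the first 20%. Kmt2d had 3 to 5 in each of the 5 parts of this size, and Kmt2c had 6 of 7 in the last.

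The highest peak of each gene was then read on its own. It was in the first 20% of the span in 16 of the 34 members (47.1%), against 23.1% of all such genes, and in the last 20% in 5 (14.7%), against 36.0%. Restricted to spans of 20 kb or more, the first 20% held it in 14 of 30 members (46.7%), against 26.1% of genes. A summit within 1000 bp after a listed start or the beginning of the span was found in 16 of the 34 members (47.1%, against 33.9% of all such genes), in 4 of 6 Kmt genes, 3 of 5 Setd genes, 2 of 3 Chd genes, 2 of 5 Kdm genes, 4 of 10 Smarc genes and 1 of 5 Arid genes. A summit within 1000 bp before the end of the span was found in 6 members (17.6%, against 32.3%), Kdm1a, Setd1a, Smarcc2, Smarcd1, Smarcd3 and Chd4. These shares within 1000 bp were not matched for number of peaks or span. Members with a peak held a median of 4 peaks and had a median span of 52.3 kb. Over all genes with a peak these medians were 2 peaks and 26.5 kb. Peaks near a start had low background, with a median of 1.34 fragments against 5.34 for the members' other peaks, and their median fold was 6.21 against 5.41. The same held over all genes, at 1.41 against 3.06 fragments and 6.20 against 5.45. The part of background in these folds was not tested.

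**Figure D5:**
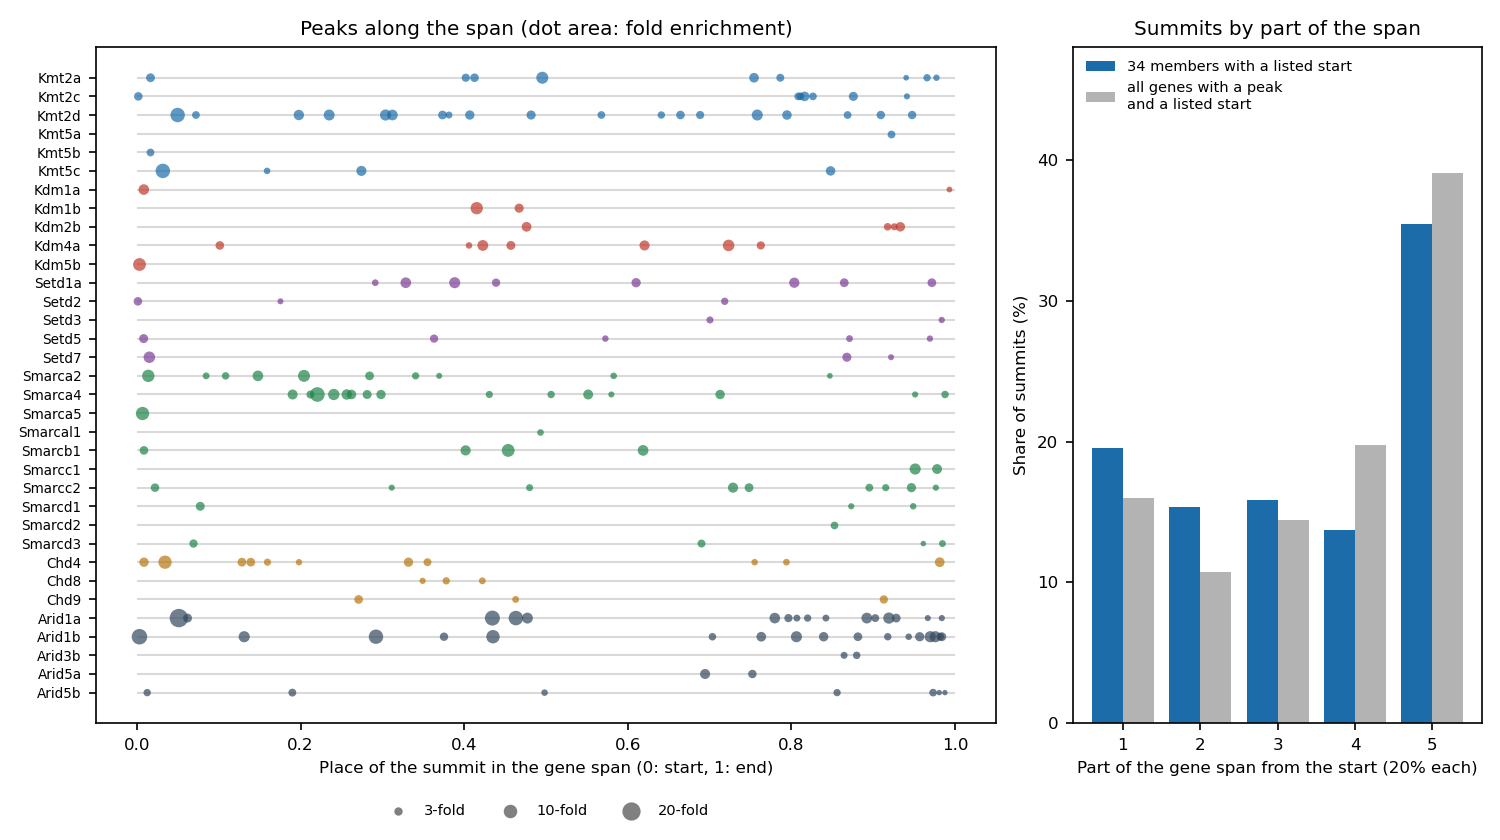
Left: place of each summit in the gene span of the 34 members with a listed start and a peak, from start (0) to end (1), with dot area in proportion to fold enrichment and colour by family; right: share of summits in 5 equal parts of the span for these members (blue, 189 summits) and all genes with a peak and a listed start (grey). The last 20% of the span holds 35.4% of the members' summits, while the largest dots of Arid1a, Arid1b, Kmt2d and Kmt5c lie near the start.

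Other genes of the same processes were counted from lists of 82 genes. A peak was held by 54 of them, where 31.7% of all protein-coding genes held one. These were 20 of 31 writers and their partners, 5 of 8 demethylases without a Kdm symbol, 12 of 18 SWI/SNF partners and 17 of 25 genes of the NuRD, ISWI and INO80 classes. The core subunits that the Kmt2 and Setd1 enzymes share, Wdr5, Rbbp5, Ash2l and Dpy30, held none, while the partner Men1 held 3 peaks, the highest at 17.8 (12.4 to 24.6). Of the polycomb core, Ezh2 and Ezh1 held 1 peak each (4.36 and 5.41) and Eed and Suz12 none. The next genes were named after their values were seen. Phf2, a JmjC demethylase, held 12 peaks, the highest at 26.3 (20.1 to 33.7), which overlapped the interval of Arid1a. Bicra, a subunit of a further form of SWI/SNF, held 9 with a highest of 21.3 (16.0 to 27.9), and Bptf, an ISWI partner that reads methylated lysine 4, held 8 with a highest of 19.7 (15.3 to 24.9). Relatives on the sex chromosomes lay outside the chromosomes chosen. Kdm5c and Kdm6a on X held 3 peaks each (highest 6.98 and 4.86), and Smarca1 on X and Kdm5d on Y held none. The uterus itself has no Y chromosome. The lack of a peak in Kdm5d, and in Uty among the listed demethylases, therefore tells nothing about ac4C.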

How the data were processed

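The values came from 1 peak list for the whole series, deposited in the narrowPeak layout. HISAT2 2.2.1, MACS3 3.0.0a7 and build mm10 are named per the submitters' processing notes, without settings. The fold enrichment at the summit (a ratio, signal over background), its −log10 p-value and −log10 q-value and its score were calculated and deposited by the authors. The largest q-value listed was 0.0499.

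The fragments at a summit were taken as the whole number that gives both the deposited fold (fragments plus 1, over background plus 1) and the Poisson p-value. Such a number existed in 21192 of 21192 peaks (relative miss at most 8.58e-06), and the step was tested on simulated data. Intervals are 95% exact Poisson intervals with the background taken as known. PCR copies of fragments could not be told from separate molecules. Library totals were not used here.

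Gene spans came from a RefSeq table (GRCm38.p6) and starts, strands and start windows from a second RefSeq table, in which 1677 of 1677 overlapping windows on opposite strands were reverse complements. The table held no start window for Arid2, Arid3a, Arid4a, Chd1, Chd2, Chd3, Chd7, Kdm2a, Kdm3b, Kdm4b, Kdm5a, Kdm6b, Kmt2b, Kmt2e, Setd1b and Smarce1. Exons were not used here. Among the members' peaks, 4 summits lay in 2 or more protein-coding genes and 6 in a gene of another kind. Python 3.11.15, pandas 2.3.3 and scipy 1.17.1 were used.

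With 1 library in each group no p-values were calculated. Genes were named by rule: in each family the 3 with the greatest fold, the 3 with most peaks and those with none, and 12 paralog pairs. Other members were named after their values were seen. The members, lists and rules were chosen with earlier results of these data known. The alternatives were a −log10 q of at least 10, a fold at or above the median, a width of at most 631 bp, summits in exactly 1 protein-coding gene, an overlap of 1 bp, and the median over a gene's peaks.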

Additional observations from a re-analysis of the deposited data

How the results depend on the processing

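Genes with a peak numbered 37 of 62 with a −log10 q of at least 10 (59.7%, against 18.3% of all genes) and 37 with a fold at or above the median of all peaks (59.7%, against 21.2%), and 46 or 47 under the other alternatives. With the q limit the peaks were 154 in all, with 20 in Kdm, 21 in Setd, 25 in Smarc, 20 in Chd and 30 in Arid, and 7 Smarc genes kept one. The median highest fold was then 9.80 for Setd and 11.8 for Smarc. With the fold limit the peaks were 141, with 28 in Kmt, 24 in Kdm, 20 in Setd, 25 in Smarc, 13 in Chd and 31 in Arid, 7 Smarc genes kept one, and the medians were 9.43 for Setd and 11.8 for Smarc. Both limits lower counts and raise medians by construction. With a width of at most 631 bp the Kmt family held 33 peaks, with a median highest fold of 7.71 against 11.1, and Chd stood at 6.83 against 10.3, as the limit removes the widest peaks. Over all members that median was 7.72, against 6.26 over all genes. When each gene was given the middle of its peaks and not the top one, the value was 5.63 over all members, 5.25 for Kmt, 6.14 for Kdm, 4.57 for Smarc and 5.33 for Chd, which replaces a maximum. No other family count or median moved past its limit (1.5 times for a count, the interval of the gene nearest the median for a fold). Summits in exactly 1 gene, or overlap of 1 bp, moved none. Of 170 values of the 29 named genes, 29 moved, 22 of them with the median over peaks and 7 with the width limit. A further 4 had no value because the gene kept no peak. These were Kdm2b and Kmt5b with the q limit, Kmt5b with the fold limit and Kdm5b with summits in exactly 1 gene. No paired analysis was possible because each group had 1 library. A peak on 5 fragments, the fewest among members, has a wide interval, and weak enrichment of rare transcripts was not detectable at this depth.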
